A study of Mus musculus with 16 samples.

Results

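Collagens are the main structural proteins of the extracellular matrix, and each is built from chains, encoded by separate genes, that wind into a triple helix. Fibrillar collagens form the cables of scar and stroma, type IV forms the sheet of basement membranes, and other types link, coat or anchor these structures. In injured liver the fibrillar collagens are made mainly by activated stellate cells and portal fibroblasts, whereas Col18a1, the precursor of endostatin, is a collagen that hepatocytes themselves make. The collagen genes described here are all genes of the count table whose symbol has the form Col, a type number, a and a chain number, and that had 10 or more counts in 2 or more of the 16 libraries. They number 36 of the 44 symbols of that form, among 55291 genes. The symbols left out were Col2a1, Col9a1, Col9a2, Col10a1, Col11a1, Col19a1, Col22a1 and Col26a1, whose counts summed over the 16 libraries lay between 9 and 48. Just inside the limit, Col17a1 reached 12 and 10 counts in its highest 2 libraries and Col28a1 11 and 10 counts. Just outside it, Col2a1 reached 43 and 2 counts, Col11a1 26 and 9 counts and Col22a1 10 and 6 counts.

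RNA with poly(A) tails was sequenced from whole mouse liver and from isolated liver tumours, with 2 biological replicates in each of 8 groups. The genotypes were Arid1a/b DKO, which lacks both Arid1a and Arid1b, Arid1a KO, and WT; Arid1a and Arid1b encode alternative subunits of the BAF chromatin remodelling complex. At 9 days after tamoxifen there were Arid1a/b DKO, Arid1a KO and WT livers, all given the vehicle DMSO. At 30 days there were Arid1a KO and WT livers given DMSO, and Arid1a KO and WT livers given an agonist whose target the labels spell NR1L3, which is not a receptor symbol. Library labels write this treatment as TC. The WT agonist livers carry 9 days in their titles and 30 days in their other labels and are treated here as 30-day livers. Neither a time nor a treatment is given for the tumours, of genotype Arid1a KO/BcatEXON, a label the sources do not explain. The labels of the WT libraries begin with ALB, which they do not spell out. Sources used here give neither the allele structure nor the promoter that drives deletion, nor the age and sex of the mice. For cell type the labels name hepatocytes, but every library also held RNA of markers of other cells, with summed levels of 10 endothelial genes between 114 and 770 CPM and of 10 hepatocyte genes between 21250 and 46580 CPM (CPM, a count relative to the TMM-scaled library size), so the samples are described as tissue.

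Libraries held 7569779 to 47768610 counts, with the deepest 2 from Arid1a/b DKO livers, and 3 counts corresponded to between 0.0480 and 0.362 CPM. Replicate 1 was the shallower library in all 8 groups, and the replicates of a group were not equally collagen-rich. Over the 17 collagen genes that were called higher in Arid1a/b DKO than in WT, replicate 1 exceeded replicate 2 for 16 genes in Arid1a/b DKO livers (median ratio 2.06), for 15 genes in Arid1a KO agonist livers (median ratio 1.79) and for all 17 genes in tumours (median ratio 2.11), while in 30-day Arid1a KO livers it did so for 2 genes (median ratio 0.619). Tumour replicate 1 also held 43 counts of Col2a1, 26 of Col11a1 and 29 of Col25a1, against 0, 1 and 0 counts in tumour replicate 2. The correlation of the 2 tumour libraries over genes, 0.930, was the lowest of the 8 groups, followed by 0.957 for the 30-day Arid1a KO livers. Each change is given on the log2 scale with its standard error (SE), from edgeR's quasi-likelihood test over all genes with Benjamini-Hochberg adjustment, and a gene is called at an adjusted p under 0.05.

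In both Arid1a/b DKO comparisons 15 collagen genes were called higher and 2 lower, and 6 of these genes are taken as examples. The sequences just before their start sites are shown. They are the 120 bases upstream of the RefSeq start in GRCm38.p6, written 5′ to 3′ on the strand of the gene, with matches to the motifs TATAAA and GGGCGG, on either strand, in capitals. The RefSeq start of Col27a1 lies inside the gene span of the other annotation used here. The first 4 genes were higher and the last 2 lower in Arid1a/b DKO than in WT livers.
Col3a1 (chr1:45311418-45311537, plus strand): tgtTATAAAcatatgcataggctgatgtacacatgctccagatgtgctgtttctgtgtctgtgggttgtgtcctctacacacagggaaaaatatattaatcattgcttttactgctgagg
Col8a1 (chr16:57754738-57754857, minus strand): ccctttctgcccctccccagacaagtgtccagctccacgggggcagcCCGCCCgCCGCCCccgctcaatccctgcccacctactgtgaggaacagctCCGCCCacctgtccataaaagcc
Col5a1 (chr2:27886305-27886424, plus strand): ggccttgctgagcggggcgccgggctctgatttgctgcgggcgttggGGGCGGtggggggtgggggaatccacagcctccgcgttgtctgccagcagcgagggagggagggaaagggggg
Col6a3 (chr1:90843972-90844091, minus strand): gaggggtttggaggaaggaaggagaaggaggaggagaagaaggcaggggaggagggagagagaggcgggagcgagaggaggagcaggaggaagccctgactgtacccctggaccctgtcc
Col5a3 (chr9:20815068-20815187, minus strand): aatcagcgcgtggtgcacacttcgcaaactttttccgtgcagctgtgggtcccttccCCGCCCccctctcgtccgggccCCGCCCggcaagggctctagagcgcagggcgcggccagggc
Col27a1 (chr4:63215292-63215411, plus strand): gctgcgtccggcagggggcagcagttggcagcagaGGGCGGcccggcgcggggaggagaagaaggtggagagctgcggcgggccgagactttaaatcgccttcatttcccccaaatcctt

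Col3a1 has the TATAAA letters with their first base 117 bases before the start, whereas Col8a1, Col5a1, Col5a3 and Col27a1 each hold GGGCGG on one strand or the other, and Col6a3 holds neither motif. Promoters were found for 30 of the 36 collagen genes, 32 windows in all. In the 250 bases before the start, GGGCGG occurred in 20 of these 32 windows and in 32.7% of all 32851 promoters, and TATAAA in 4 of 32 and in 12.4% of all. CCAAT occurred in 11 of 32 and in 33.9% of all, TGANTCA, the AP-1 letters, in 1 of 32 (Col6a1) and in 6.75% of all, and GGAATG, the TEAD letters, in 4 of 32 and in 12.6% of all. All 5 motifs were searched on both strands. Of 14 windows of 13 genes called higher in Arid1a/b DKO than in WT livers, 10 held GGGCGG. A match is a description of the letters only.

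Several collagen genes lie side by side. Col4a1 (chr8:11198423-11312826, minus strand) and Col4a2 (chr8:11312805-11449287, plus strand), which together make the most widespread type IV collagen, start head to head and overlap by 22 bases. Col4a3 and Col4a4 are separated by 71 bases and Col4a5 and Col4a6 by 1308 bases, also head to head. Col3a1 (chr1:45311538-45349706) and Col5a2 (chr1:45374321-45503282) lie 24.6 kb apart, and Col6a1 and Col6a2 85.2 kb apart. Counting by strand was not given in the sources used here, so reads from overlapping genes cannot be told apart; the overlap covered 0.295% of the Col4a1 exons, 6.07% of the Col9a3 exons (Tcfl5) and 5.65% of the Col4a3 exons.

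In WT livers the collagen RNA was mostly Col18a1. Per length of the principal transcript, Col18a1 (chr10:77052178-77166548) stood at 232 and 246 RPKM in the 9-day WT livers. The next were Col27a1, a fibrillar collagen of cartilage, at a mean of 17.3 RPKM, Col14a1, which sits on fibril surfaces, at 13.2 RPKM, Col5a3, a chain of the fibril-initiating type V collagen, at 12.4 RPKM, and Col3a1, the fibrillar collagen of soft organs, at 7.35 RPKM. Col18a1 thus stood far above all others, while the ranges of the 2 libraries overlapped between Col27a1 and Col14a1 and between Col14a1 and Col5a3. Col1a2 and Col1a1, the chains of type I collagen, were at 4.01 and 1.69 RPKM, and 17 of the 36 genes were under 1 RPKM. Col18a1 made up 66.0% to 75.7% of the collagen counts in the 4 WT vehicle livers, and Col1a1, Col1a2 and Col3a1 together 2.05% to 4.98%.

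The first comparison set Arid1a/b DKO livers against WT livers at 9 days. Chains of fibrillar, type IV, type VI, fibril-associated and short-chain collagens rose, with log2 fold changes of 4.99 for Col8a1, 4.70 for Col1a1 and 4.0 for Col3a1, and Col27a1, Col5a3 and Col25a1 fell. Of the 33 collagen genes tested, 17 were called higher and 3 lower, which is 60.6% against 26.4% of all 17831 genes tested; 12.6% of all genes were called higher and 13.8% lower. The median log2 fold change of the 33 genes was 1.77, against 0.01 over all genes. Col17a1, Col28a1 and Col6a4 were too low to be tested in livers. Collagen genes took 0.570% and 0.312% of all counts in Arid1a/b DKO livers, against 0.148% and 0.183% in WT livers. Without Col18a1 these shares were 0.456% and 0.237% in Arid1a/b DKO, against 0.0454% and 0.0621% in WT. Because the RNA is from tissue, more or fewer cells of a type and more or less RNA per cell cannot be told apart in any of these values.

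Of the 9 fibrillar collagen genes, 6 rose and 2 fell in Arid1a/b DKO livers. Col1a1 (chr11:94936224-94953042) had 345 and 185 CPM in the Arid1a/b DKO livers, against 6.83 and 13.3 CPM in WT livers. Both Arid1a/b DKO livers were above every other library of the series for this gene. The log2 fold change was 4.70 (SE 0.66, edgeR adjusted p = 0.000773). Its partner chain Col1a2 had 414 and 168 CPM in Arid1a/b DKO and 14.5 and 28.3 CPM in WT livers (log2 3.76, SE 0.60, edgeR adjusted p = 0.00153). Col3a1 had 869 and 437 CPM in Arid1a/b DKO and 34.3 and 47.5 CPM in WT livers (log2 4.0, SE 0.56, edgeR adjusted p = 0.000730). For both genes the 2 groups were far apart, and replicate 1 was the higher Arid1a/b DKO liver. Per length, Col3a1 was the second most abundant collagen RNA in Arid1a/b DKO livers at 156 and 78.6 RPKM, after Col18a1 at 181 and 120.2 RPKM. The chains of type V collagen, which starts fibrils and sets their width, split in direction. Col5a2 had 134 and 63.0 CPM in Arid1a/b DKO and 6.43 and 8.01 CPM in WT livers (log2 3.77, SE 0.53), and Col5a1 had 124 and 64.0 CPM in Arid1a/b DKO and 10.7 and 15.1 CPM in WT livers (log2 2.86, SE 0.39). Col5a3 went the other way, with 7.81 and 4.21 CPM in Arid1a/b DKO and 53.8 and 98.2 CPM in WT livers (log2 -3.66, SE 0.62, edgeR adjusted p = 0.00210). Per length, Col5a3 over Col5a1 was 0.0867 and 0.0905 in Arid1a/b DKO livers, against 6.91 and 8.91 in WT livers. Col27a1 (chr4:63214004-63334991) fell too, with 17.9 and 17.8 CPM in Arid1a/b DKO and 165 and 98.8 CPM in WT livers (log2 -2.88, SE 0.52, edgeR adjusted p = 0.00314). Col11a2, a chain of cartilage fibrils, rose at a low level, to 12.7 and 5.78 CPM in Arid1a/b DKO, against 2.73 and 2.29 CPM in WT livers (log2 1.89, SE 0.42), and Col24a1 did not pass (log2 -0.23, SE 0.76).

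**Figure D1:**
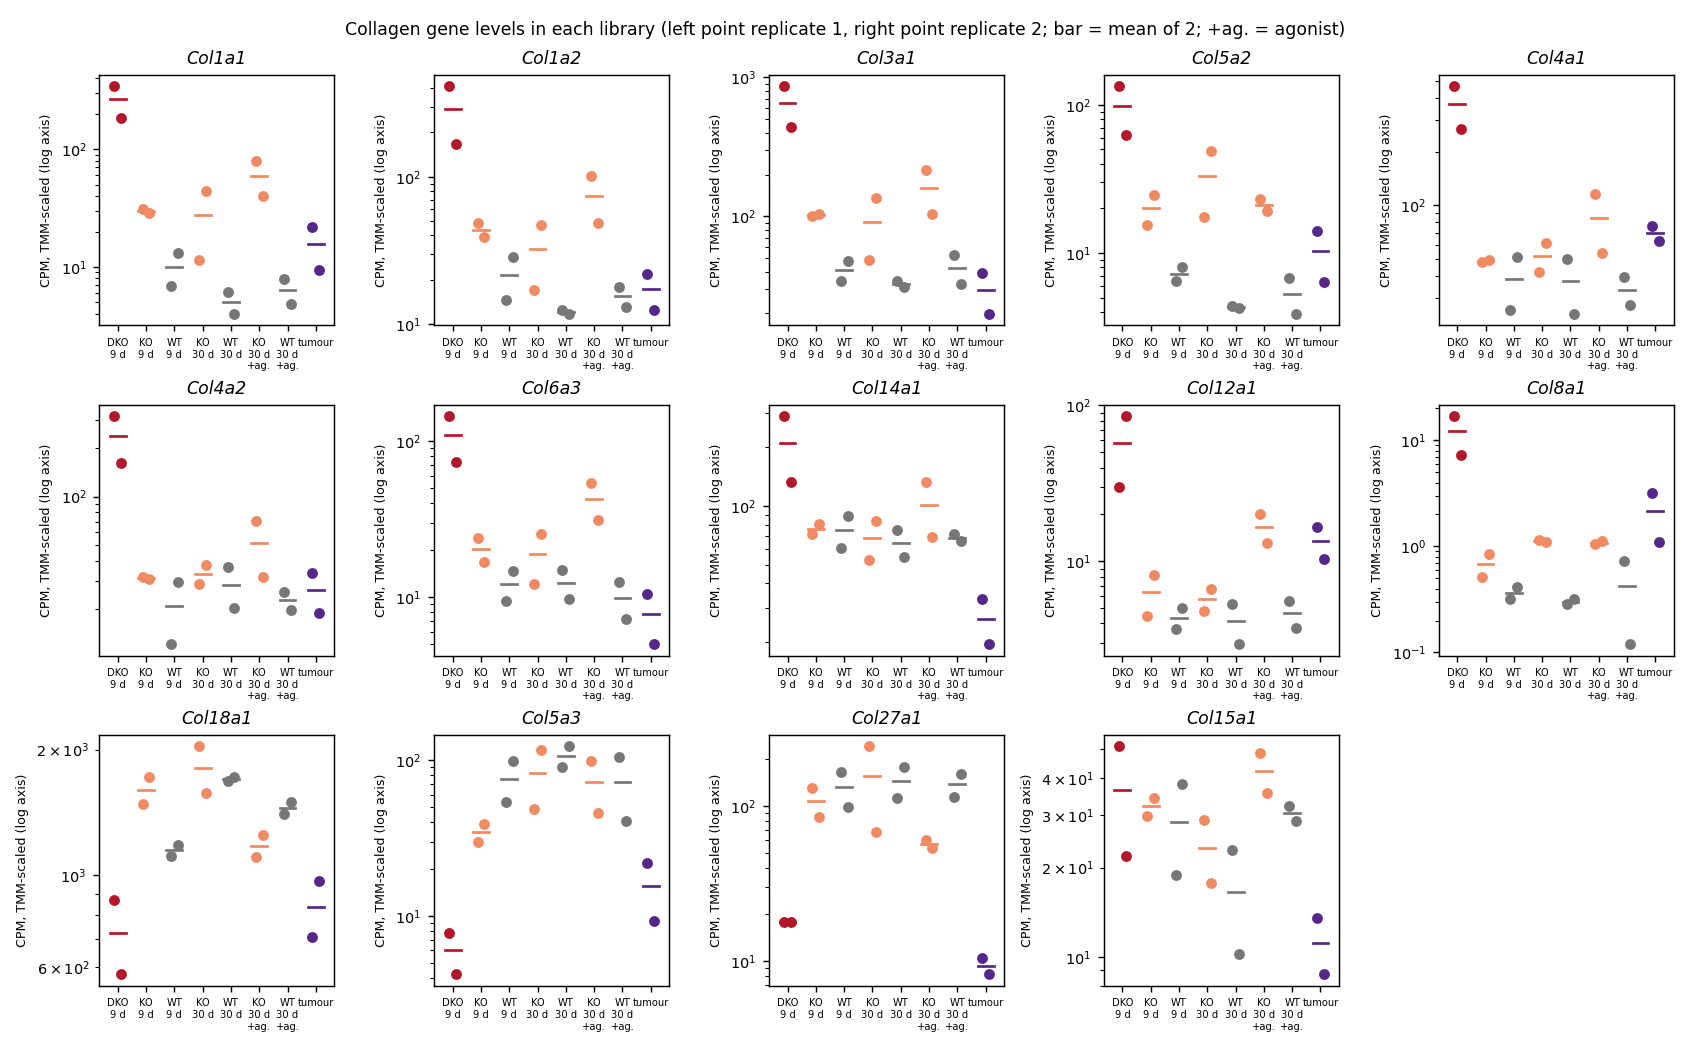
Levels of 14 collagen genes in all 16 libraries, as TMM-scaled CPM on a log axis; points are libraries, the left one replicate 1, and bars are the mean of 2. Both Arid1a/b DKO livers (DKO) lie above all other libraries for Col1a1, Col1a2, Col3a1, Col4a1, Col4a2 and Col8a1, and below all other livers for Col18a1, Col5a3 and Col27a1.

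Of the 6 type IV chains, 3 rose. Col4a1 had 469 and 269 CPM in Arid1a/b DKO and 25.9 and 51.1 CPM in WT livers (log2 3.26, SE 0.51, edgeR adjusted p = 0.00133). Col4a2 had 316 and 161 CPM in Arid1a/b DKO and 12.1 and 29.7 CPM in WT livers (log2 3.51, SE 0.53, edgeR adjusted p = 0.00120). The per-length ratio of Col4a1 over Col4a2 was 1.45 and 1.63 in Arid1a/b DKO, against 2.08 and 1.68 in WT livers, with both Arid1a/b DKO values below both WT values. Col4a5, mutated in Alport syndrome, had 22.1 and 8.76 CPM in Arid1a/b DKO and 2.65 and 2.39 CPM in WT livers (log2 2.62, SE 0.44), while its neighbour Col4a6 did not pass (log2 0.78, SE 0.59). The other head-to-head pair, Col4a3 (log2 -0.55, SE 0.43) and Col4a4 (log2 -0.56, SE 0.45), did not pass either, at 0.641 to 2.23 CPM in these 4 livers.

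Of the 5 tested type VI chains, which form microfibrils, 3 rose. Col6a3 had 144 and 73.9 CPM in Arid1a/b DKO and 9.40 and 14.8 CPM in WT livers (log2 3.17, SE 0.50, edgeR adjusted p = 0.00142). Col6a1 had a log2 fold change of 2.02 (SE 0.46, edgeR adjusted p = 0.00967) and Col6a2 of 2.06 (SE 0.47, edgeR adjusted p = 0.00979). Col6a3 over Col6a1 per length was 0.817 and 0.991 in Arid1a/b DKO livers, against 0.404 and 0.382 in WT livers. The alternative chains Col6a5 (log2 1.15, SE 1.24) and Col6a6 (log2 -0.53, SE 0.74) did not pass.

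Among the collagens that decorate fibrils, Col12a1, a collagen of tissue under load, had 30.0 and 85.4 CPM in Arid1a/b DKO and 3.70 and 4.99 CPM in WT livers (log2 3.72, SE 0.54, edgeR adjusted p = 0.000986). It was the 1 gene of the 17 for which replicate 2 was the higher Arid1a/b DKO liver. Col14a1 had 289 and 132 CPM in Arid1a/b DKO and 60.9 and 88.6 CPM in WT livers (log2 1.5, SE 0.41, edgeR adjusted p = 0.0213), and Col16a1 a log2 fold change of 1.82 (SE 0.57, edgeR adjusted p = 0.0380). The short-chain collagen Col8a1 (chr16:57624258-57754737), known from remodelling vessels, changed most. It had 16.9 and 7.35 CPM in Arid1a/b DKO and 0.321 and 0.413 CPM in WT livers, and the WT values rest on 4 and 13 counts (log2 4.99, SE 0.66, edgeR adjusted p = 0.000553). Among transmembrane collagens Col23a1 was called higher (log2 1.77, SE 0.52), on 80 and 55 counts in Arid1a/b DKO and 6 and 11 counts in WT livers. Per length it stood at 0.338 and 0.156 RPKM in Arid1a/b DKO and 0.196 and 0.255 RPKM in 9-day Arid1a KO livers, which overlap. Col25a1 was called lower (log2 -4.16, SE 1.18), on 4 and 12 counts in Arid1a/b DKO and 39 and 75 counts in WT livers. Col25a1 had 6 and 5 counts in 9-day Arid1a KO, 12 and 1 in 30-day WT and 1 and 80 in 30-day Arid1a KO livers. Low counts of this gene were therefore not limited to Arid1a/b DKO livers.

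The multiplexins of basement membrane zones did not join the rise. Col18a1 had 869 and 576 CPM in Arid1a/b DKO and 1111 and 1180.2 CPM in WT livers, and the difference did not pass (log2 -0.66, SE 0.24, edgeR adjusted p = 0.0607). It was called lower by DESeq2 (log2 -0.63, adjusted p = 0.0262) and by edgeR without Arid1a/b DKO replicate 1 (log2 -0.98, adjusted p = 0.0251). Col15a1 had 51.2 and 21.8 CPM in Arid1a/b DKO and 18.8 and 38.2 CPM in WT livers, which overlap (log2 0.35, SE 0.48). The remaining tested genes, Col7a1 of anchoring fibrils, Col8a2, Col9a3, Col13a1 and Col20a1, did not pass, with log2 fold changes from -0.36 to 1.84. The makeup of the collagen RNA therefore differed: Col18a1 gave 19.9% and 24.1% of the collagen counts in Arid1a/b DKO livers, against 69.3% and 66.0% in WT livers, and Col1a1, Col1a2 and Col3a1 together gave 37.4% and 33.1% in Arid1a/b DKO, against 3.48% and 4.98% in WT livers.

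**Figure D2:**
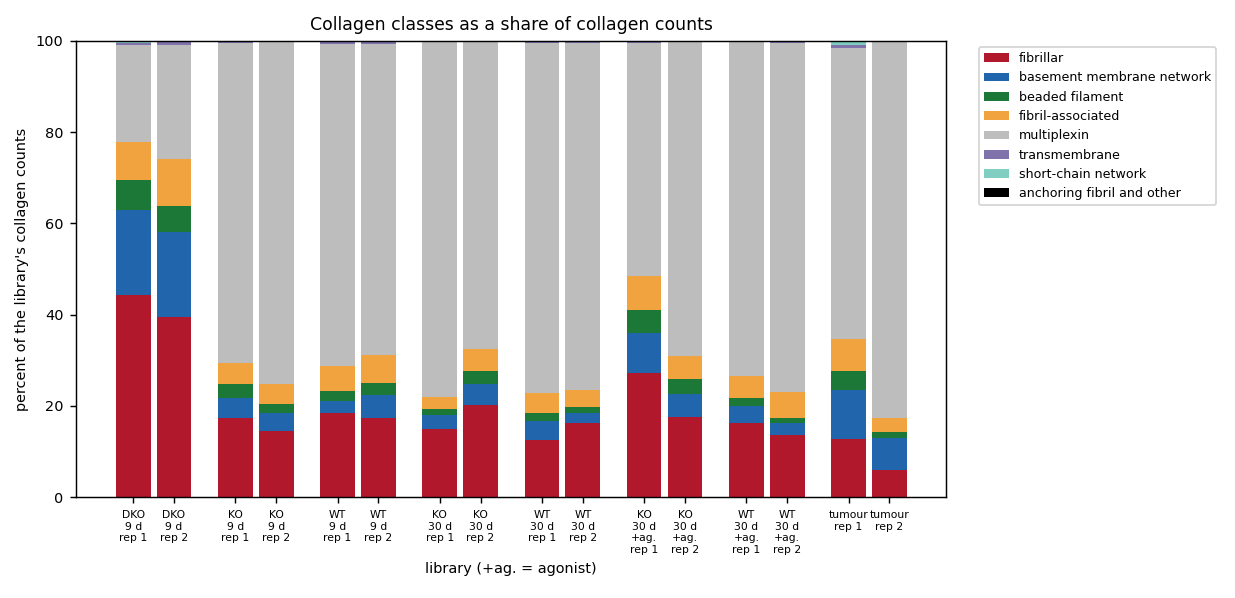
Collagen classes as a percent of each library's collagen counts, 1 bar per library. The multiplexin share, nearly all Col18a1, is 21.1% and 25.0% in the 2 Arid1a/b DKO livers, against 70.5% and 68.1% in the 9-day WT livers; fibrillar collagens hold 44.2% and 39.6% in Arid1a/b DKO, against 18.4% and 17.5% in 9-day WT livers.

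A fit without 1 liver leaves 1 library in its group, and the share of all genes called in such fits is not given. With any 1 of the 4 livers left out, 11 of the genes stayed called higher (Col1a1, Col1a2, Col3a1, Col5a1, Col5a2, Col4a1, Col4a2, Col4a5, Col6a3, Col8a1 and Col12a1) and 2 lower (Col27a1 and Col5a3). Col6a1, Col6a2, Col14a1, Col16a1, Col11a2, Col23a1 and Col25a1 were lost in at least 1 such fit.

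Set against Arid1a KO livers of the same day instead, Arid1a/b DKO livers had 16 collagen genes called higher and 3 lower of 33, against 9.92% of all genes called higher, 12.1% lower and 22% in either direction. This comparison shares the Arid1a/b DKO libraries with the one before and asks what the added loss of Arid1b changes. Col1a1 had 30.9 and 28.7 CPM in Arid1a KO livers, so its log2 fold change in Arid1a/b DKO over Arid1a KO was 3.16 (SE 0.61, edgeR adjusted p = 0.00525). The other fibrillar chains called higher were Col1a2 (log2 2.75, SE 0.57), Col3a1 (log2 2.69, SE 0.52), Col11a2 (log2 2.63, SE 0.44), Col5a1 (log2 2.45, SE 0.38) and Col5a2 (log2 2.29, SE 0.49). Outside the fibrillar class Col8a1 (log2 4.12, SE 0.62), Col12a1 (log2 3.18, SE 0.53), Col4a2 (log2 2.95, SE 0.52), Col4a1 (log2 2.92, SE 0.50), Col13a1 (log2 2.46, SE 0.50) and Col6a3 (log2 2.43, SE 0.48) rose. Col14a1 (log2 1.47, SE 0.41), Col6a2 (log2 1.44, SE 0.46), Col6a1 (log2 1.41, SE 0.45) and Col4a5 (log2 1.34, SE 0.42) passed too. Col18a1 fell in Arid1a/b DKO, to the 869 and 576 CPM given above, against 1481 and 1717 CPM in Arid1a KO livers (log2 -1.14, SE 0.24, edgeR adjusted p = 0.00746). Col27a1 (log2 -2.58, SE 0.52) and Col5a3 (log2 -2.52, SE 0.59) were lower as well, and Col15a1 did not pass (log2 0.19, SE 0.48). With any 1 of the 4 livers left out Col3a1, Col5a1, Col4a1, Col4a2, Col12a1, Col8a1, Col11a2 and Col27a1 stayed called, and the others did not. The share of all genes called in such fits is not given.

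**Figure D3:**
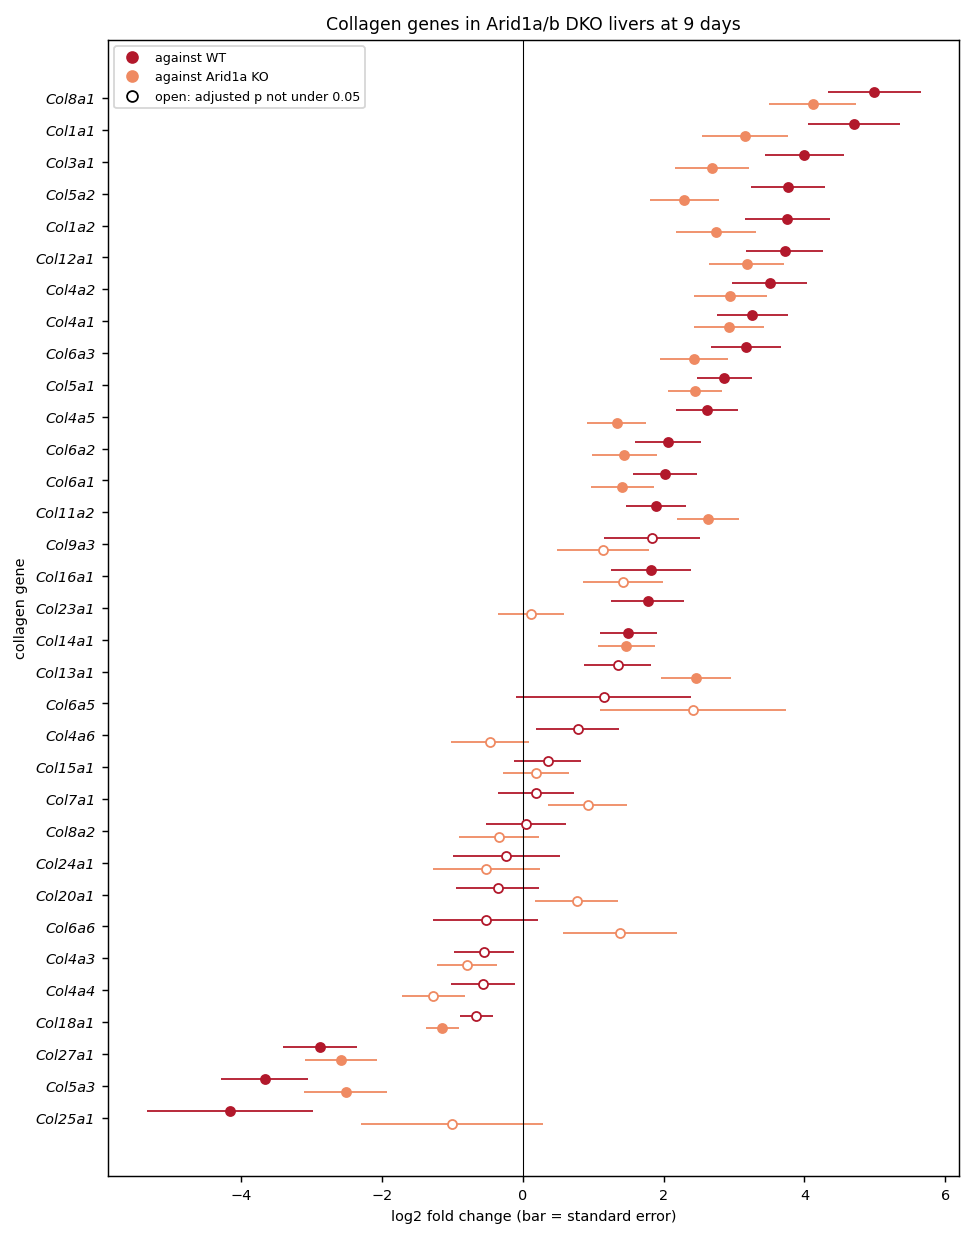
Log2 fold changes of the 33 tested collagen genes in Arid1a/b DKO livers at 9 days, against WT (dark red) and against Arid1a KO (orange) livers; bars are standard errors and open points did not pass. Col8a1, Col1a1 and Col3a1 lie at 4.99, 4.70 and 4.0 against WT, and Col27a1, Col5a3 and Col25a1 at -2.88, -3.66 and -4.16.

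The genes around collagen were counted in the same comparison of Arid1a/b DKO with WT livers, in which 12.6% of all genes were called higher and 13.8% lower. Of 20 tested enzymes and chaperones that modify or export collagen, 8 rose, 1 fell and 11 did not pass, with a median log2 fold change of 0.42. Serpinh1, the collagen chaperone HSP47, had 94.7 and 64.8 CPM in Arid1a/b DKO and 16.9 and 16.3 CPM in WT livers (log2 2.27, SE 0.32, edgeR adjusted p = 0.000726). Creb3l1, a transcription factor of collagen export, rose by 3.15 on the log2 scale (SE 0.58) and Fkbp10, a folding enzyme, by 2.93 (SE 0.58), whereas Mia3, which loads procollagen into vesicles, fell by 0.80 on the log2 scale (SE 0.23). Of 12 genes of procollagen cleavage and cross-linking, 8 rose and 1 fell, with a median of 1.5. Adamts14 (log2 3.45, SE 0.40) and Adamts2 (log2 2.94, SE 0.40), which trim the amino end, were higher, as were the cross-linking enzymes Loxl2 (log2 3.31, SE 0.51) and Lox (log2 5.51, SE 1.14). Bmp1, which trims the carboxyl end, was lower, with 72.8 and 41.9 CPM in Arid1a/b DKO livers, against 271 and 239.6 CPM in WT livers (log2 -2.15, SE 0.32, edgeR adjusted p = 0.00102).

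Of 15 genes of collagen breakdown and its inhibitors, 8 rose and 1 fell (median log2 1.64), among them Mmp12 (log2 6.85, SE 0.88), Mmp13 (log2 4.87, SE 0.84) and the inhibitor Timp1 (log2 3.92, SE 0.67). Of 8 collagen receptors, 5 rose and 0 fell (median log2 1.33), among them the integrin Itga11 (log2 3.77, SE 0.82) and the receptor kinase Ddr1 (log2 2.67, SE 0.42). Of 16 partners of type IV collagen in basement membranes, 10 rose and 1 fell (median log2 1.42), with Lamc1 at a log2 of 2.08 (SE 0.28) and Lama3 at -4.60 (SE 0.43). Of 17 partners of fibrils, 9 rose and 0 fell (median log2 1.45), among them Fbn1 (log2 3.64, SE 0.55) and Postn (log2 3.44, SE 0.50). Of 22 genes of TGF-beta and PDGF signalling, 9 rose and 0 fell (median log2 0.92), among them Tgfb2 (log2 3.0, SE 0.65), Ccn2 (log2 2.81, SE 0.60) and Pdgfrb (log2 2.44, SE 0.33). These 7 lists were chosen with earlier results of these data known.

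Markers of cell types were counted against the same 12.6% of all genes called higher and 13.8% lower. Of 6 myofibroblast and smooth muscle markers, 4 were higher, and their summed level was 169 and 85.5 CPM in Arid1a/b DKO, against 15.3 and 16.5 CPM in WT livers, with none of the 6 at 0. Acta2, the smooth muscle actin of activated stellate cells, had 85.1 and 40.7 CPM in Arid1a/b DKO and 1.53 and 1.30 CPM in WT livers. Of 13 stellate cell markers, 6 were higher and 0 lower, with sums of 756 and 494 CPM in Arid1a/b DKO, against 261 and 348 CPM in WT livers. Of 8 portal fibroblast markers, 5 were higher, with sums of 101 and 52.0 CPM in Arid1a/b DKO, against 19.1 and 24.1 CPM in WT livers. Thy1 (log2 -0.01), Gli1 (log2 0.47) and Entpd2 (log2 -0.83) did not pass. Eln and Fbln2 were also counted among the fibril partners, and Pdgfrb both as a stellate cell marker and as a signalling gene. In all 3 of these marker lists replicate 1 was the higher Arid1a/b DKO liver, as it was for most collagen genes. Of the other lists, 3 of 10 endothelial, 1 of 9 macrophage, 2 of 7 cholangiocyte and 1 of 5 mesothelial markers were higher, with 1 cholangiocyte marker lower; 1 of 9 is near the share over all genes. Of the hepatocyte markers 5 of 10 were lower, with sums of 21350 and 21370 CPM in Arid1a/b DKO, against 46580 and 23700 CPM in WT livers. Of 3 tested exocrine pancreas markers 1 was higher and 2 were lower. The part of cell makeup in the collagen differences was not tested.

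Loss of Arid1a alone was compared with WT at 9 days, at 30 days and under the agonist. At 9 days the 33 tested collagen genes had a median log2 fold change of 0.41 in Arid1a KO over WT, against 0.00 over all genes, but none was called by edgeR, by DESeq2, or by edgeR with a replicate block, and 0.566% of all genes were called, 0.269% higher and 0.297% lower. At an unadjusted p under 0.05 there were 8. The share of all genes at that unadjusted threshold is not given, here or below, so such counts cannot be read as an excess. Col1a1 had 30.9 and 28.7 CPM in Arid1a KO and 6.83 and 13.3 CPM in WT livers, without overlap (log2 1.55, SE 0.59, edgeR adjusted p = 0.359). Col3a1 had 100.4 and 103 CPM in Arid1a KO and 34.3 and 47.5 CPM in WT livers, again without overlap (log2 1.31, SE 0.50, edgeR adjusted p = 0.361). Col5a2 had 15.5 and 24.7 CPM in Arid1a KO and 6.43 and 8.01 CPM in WT livers (log2 1.47, SE 0.49, edgeR adjusted p = 0.272). The other genes of the liver set, Col1a2, Col4a1, Col4a2, Col6a1, Col6a2, Col6a3, Col14a1, Col15a1 and Col18a1, had log2 fold changes between 0.03 and 1.01.

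At 30 days 1 of 33 collagen genes was called in Arid1a KO over WT, against 0.286% of all genes called higher and 0.516% in either direction. It was Col5a2, with 17.6 and 49.0 CPM in Arid1a KO and 4.41 and 4.22 CPM in WT livers (log2 2.96, SE 0.52, edgeR adjusted p = 0.0397). Both Arid1a KO livers were above both WT livers, and replicate 2 was well above replicate 1. The call was lost without Arid1a KO replicate 2, whose removal left a log2 of 1.97 (edgeR adjusted p = 0.217), and without WT replicate 1 (log2 2.99, edgeR adjusted p = 0.212) or WT replicate 2 (log2 2.94, edgeR adjusted p = 0.353), and with a replicate block the adjusted p was 0.0565. Col1a1 had 11.5 and 44.1 CPM in Arid1a KO and 6.13 and 3.99 CPM in WT livers (log2 2.50, SE 0.63, edgeR adjusted p = 0.140), and was called by DESeq2 (adjusted p = 0.00246) and by edgeR without Arid1a KO replicate 1 (log2 3.18, adjusted p = 0.0193). Col3a1 had 48.2 and 135 CPM in Arid1a KO and 34.0 and 30.7 CPM in WT livers (log2 1.51, SE 0.51, edgeR adjusted p = 0.315). Col1a2 had 17.0 and 47.3 CPM in Arid1a KO and 12.4 and 11.7 CPM in WT livers (log2 1.44, SE 0.56, edgeR adjusted p = 0.425). For each of these 4 chains replicate 2 was the higher Arid1a KO liver, and the other liver collagens lay between log2 0.08 and 0.76. Summed stellate cell markers were 295 and 522 CPM in the Arid1a KO livers, against 343 and 383 CPM in WT livers, with the same replicate higher, and portal fibroblast markers 24.2 and 35.9 CPM in Arid1a KO, against 18.9 and 16.5 CPM in WT livers; their part was not tested.

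The difference between the Arid1a effect at 30 days and at 9 days was tested as an interaction. None of the 33 collagen genes was called by edgeR or DESeq2, and 0% of all genes were called. At an unadjusted p under 0.05 there was 1, Col25a1. Col5a2 had a difference of log2 1.49 (SE 0.70, edgeR unadjusted p = 0.0556). Among the genes of the 7 lists around collagen, P4ha2, a subunit of the enzyme that hydroxylates proline in collagen, was the only one called in either vehicle comparison. Of all genes, 0.566% were called at 9 days and 0.516% at 30 days, and 1 gene over the 7 lists is near these shares. P4ha2 was lower in Arid1a KO at 9 days, with 2.00 and 1.84 CPM in Arid1a KO and 11.6 and 11.5 CPM in WT livers (log2 -2.59, SE 0.34, edgeR adjusted p = 0.00922). At 30 days it had 1.71 and 1.79 CPM in Arid1a KO and 8.05 and 8.30 CPM in WT livers (log2 -2.22, SE 0.34, edgeR adjusted p = 0.0198). The Arid1a/b DKO livers had 6.90 and 11.98 CPM, higher than in 9-day Arid1a KO livers (log2 2.30, SE 0.33, edgeR adjusted p = 0.000999).

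Under the agonist 4 of 33 collagen genes were called higher in Arid1a KO than in WT livers and 0 lower, against 3.05% of all genes called higher and 4.95% in either direction. The median log2 fold change of the 33 genes was 0.90, against -0.01 over all genes. An unadjusted p under 0.05 was reached by 15, with no share over all genes to set beside it. Col1a1 had 78.9 and 39.7 CPM in Arid1a KO agonist livers and 7.85 and 4.87 CPM in WT agonist livers (log2 3.26, SE 0.64, edgeR adjusted p = 0.0187). Col1a2 had 100.5 and 48.4 CPM in Arid1a KO and 17.9 and 13.1 CPM in WT agonist livers (log2 2.28, SE 0.57, edgeR adjusted p = 0.0468). Neither gene had an overlap between the groups. Col6a3 had 54.0 and 31.2 CPM in Arid1a KO and 12.6 and 7.27 CPM in WT agonist livers (log2 2.13, SE 0.49, edgeR adjusted p = 0.0333), and Col5a2 23.2 and 19.2 CPM in Arid1a KO and 6.76 and 3.87 CPM in WT agonist livers (log2 2.04, SE 0.51, edgeR adjusted p = 0.0468). Col3a1 missed the threshold, with 216 and 104 CPM in Arid1a KO and 52.7 and 32.3 CPM in WT agonist livers (log2 1.92, SE 0.51, edgeR adjusted p = 0.0569). Col6a2 (log2 1.61, SE 0.48), Col4a1 (log2 1.36, SE 0.48), Col4a2 (log2 1.18, SE 0.50) and Col6a1 (log2 1.10, SE 0.46) did not pass, nor did Col14a1, Col15a1 and Col18a1, which lay between -0.29 and 0.56. Each of these calls was lost in at least 1 fit without 1 of the 4 livers. The share of all genes called in such fits is not given. For Col1a1 the log2 fold change was 2.68 without Arid1a KO replicate 1, 3.59 without WT replicate 1 and 2.92 without WT replicate 2. DESeq2 called 9 collagen genes in this comparison, and edgeR with a replicate block 2, both given without the share of all genes called.

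**Figure D4:**
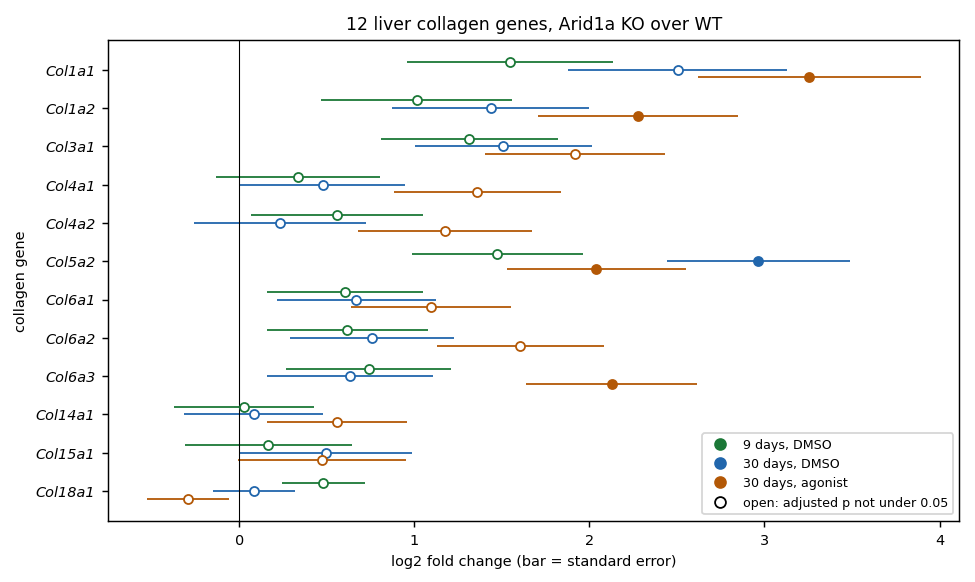
Log2 fold changes of 12 liver collagen genes in Arid1a KO over WT livers at 9 days, at 30 days and at 30 days with the agonist; bars are standard errors and filled points passed an adjusted p of 0.05. Col1a1 lies at 1.55, 2.50 and 3.26 and is filled only with the agonist, Col5a2 at 1.47, 2.96 and 2.04, and Col18a1 at 0.48, 0.09 and -0.29.

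The lists around collagen were counted in the same comparison, in which 3.05% of all genes were called higher and 1.91% lower. Of 12 tested genes of procollagen cleavage and cross-linking 4 rose and 0 fell, namely Adamts14 (log2 2.59, SE 0.40), the cross-linker Tgm2 (log2 2.22, SE 0.37), Loxl1 (log2 1.91, SE 0.46) and Adamts2 (log2 1.80, SE 0.39). Of 15 breakdown genes and inhibitors 4 rose and 0 fell, namely Mmp12 (log2 3.65, SE 0.79), Mmp13 (log2 3.52, SE 0.82), Timp1 (log2 3.10, SE 0.70) and Mmp2 (log2 1.81, SE 0.40). P3h1, a prolyl 3-hydroxylase, was the 1 of 20 modifying enzymes called (log2 0.90, SE 0.15), a share near that over all genes. Nid1 rose (log2 2.97, SE 0.51) and Lama3 fell (log2 -3.03, SE 0.42) among 16 basement membrane partners, Ltbp1 rose (log2 1.54, SE 0.36) as 1 of 22 genes of TGF-beta and PDGF signalling, again near it, and 0 of 8 receptors and 0 of 17 fibril partners were called. None of the stellate cell, myofibroblast or portal fibroblast markers was called. Summed stellate cell markers were 559 and 378 CPM in Arid1a KO and 283 and 432 CPM in WT agonist livers, and portal fibroblast markers 43.7 and 33.6 CPM in Arid1a KO and 22.5 and 16.3 CPM in WT agonist livers; their part in the collagen differences was not tested.

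The effect of the agonist itself was compared within each genotype at 30 days. In WT livers no collagen gene was called by edgeR or DESeq2, 1 had an unadjusted p under 0.05 and 0.028% of all genes were called. The 12 liver collagens had log2 fold changes, agonist over DMSO, between -0.44 and 0.89. In Arid1a KO livers no collagen gene was called by edgeR or DESeq2 either, 4 had an unadjusted p under 0.05 (Col6a3, Col12a1, Col18a1 and Col27a1), and 0.869% of all genes were called. Col1a1 stood at 78.9 and 39.7 CPM in Arid1a KO agonist livers and at 11.5 and 44.1 CPM in Arid1a KO DMSO livers, which overlap (log2 1.07, SE 0.57, edgeR adjusted p = 0.490). Col12a1 had 20.1 and 13.1 CPM in Arid1a KO agonist livers and 4.79 and 6.71 CPM in Arid1a KO DMSO livers, without overlap (log2 1.51, SE 0.51, edgeR adjusted p = 0.226). Col18a1 had 1103 and 1248 CPM with the agonist and 2036 and 1568 CPM with DMSO in Arid1a KO livers (log2 -0.61, SE 0.24, edgeR adjusted p = 0.297). The other liver collagens were between -0.66 and 1.20 on the log2 scale. The interaction of genotype and agonist called no collagen gene by edgeR or DESeq2 and 0.00561% of all genes; Col6a3 had the 1 unadjusted p under 0.05, with a difference of log2 1.49 (SE 0.67, unadjusted p = 0.0480). Adamts14 rose with the agonist in Arid1a KO livers (log2 2.38, SE 0.39, edgeR adjusted p = 0.0199), to 14.7 and 13.5 CPM, against 1.83 and 3.43 CPM with DMSO.

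The tumours were compared with the mean of the 9-day and 30-day vehicle livers of each genotype, since they have no time of their own. Against WT livers 9 of 36 collagen genes were called, 2 higher and 7 lower, which is 25% against 36.6% of all 18193 genes tested, 20.5% higher and 16.1% lower. The median log2 fold change of the 36 genes was -0.18. The tumours thus showed no general rise of collagen RNA: collagen genes took 0.132% and 0.117% of all counts in tumours, against 0.148% to 0.205% in the 4 WT vehicle livers. Col27a1 fell most, to 10.4 and 8.23 CPM in tumours, against 165, 98.8, 112 and 178 CPM in WT livers (log2 -3.90, SE 0.51, edgeR adjusted p = 0.000179). Col5a3 had 21.8 and 9.29 CPM in tumours and 53.8, 98.2, 91.1 and 123 CPM in WT livers (log2 -2.56, SE 0.58, edgeR adjusted p = 0.00516). For both genes all tumours were below all WT livers. Col13a1 (log2 -2.08, SE 0.51), Col5a1 (log2 -1.51, SE 0.42), Col4a4 (log2 -1.44, SE 0.47), Col14a1 (log2 -1.41, SE 0.38) and Col18a1 (log2 -0.74, SE 0.23) were lower as well. Col8a1 was higher, with 3.17 and 1.11 CPM in tumours and 0.287 to 0.413 CPM in WT livers (log2 2.59, SE 0.60, edgeR adjusted p = 0.00573), as was Col12a1, with 16.5 and 10.4 CPM in tumours and 2.95 to 5.37 CPM in WT livers (log2 1.66, SE 0.42, edgeR adjusted p = 0.00969). With any 1 of the 6 libraries left out, Col27a1 and Col5a3 stayed called, and the other 7 were each lost at least once: without tumour replicate 1 Col8a1 (log2 1.69, adjusted p = 0.0812), Col12a1, Col18a1 and Col4a4, without tumour replicate 2 Col5a1, Col13a1, Col14a1 and Col4a4, without 9-day WT replicate 2 Col18a1 and Col4a4, and without 30-day WT replicate 2 Col4a4.

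The chains that led in Arid1a/b DKO livers were not called in tumours against WT. Col1a1 had 22.0 and 9.34 CPM in tumours and 3.99 to 13.3 CPM in the 4 WT livers, which overlap (log2 1.12, SE 0.53, edgeR adjusted p = 0.115). Col1a2 (log2 0.08, SE 0.48), Col3a1 (log2 -0.31, SE 0.46) and Col5a2 (log2 0.85, SE 0.45) did not pass. Col4a1 had 75.9 and 63.0 CPM in tumours and 24.4 to 51.1 CPM in WT livers (log2 0.87, SE 0.38, edgeR adjusted p = 0.0910), while Col4a2 had 33.5 and 18.9 CPM in tumours and 12.1 to 36.5 CPM in WT livers (log2 0.09, SE 0.43). The per-length ratio of Col4a1 over Col4a2 was 2.21 and 3.25 in tumours, against 1.17 to 2.08 in the 14 livers, so the tumours were above all livers. Col6a1, Col6a2, Col6a3 and Col15a1 lay between log2 -0.98 and -0.50 and did not pass.

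Against Arid1a KO livers, 12 of 36 collagen genes were called in tumours, 1 higher and 11 lower, which is 33.3% against 33.1% of all genes; 18% of all genes were called higher and 15.2% lower. Col27a1 (log2 -3.79, SE 0.51), Col4a4 (log2 -1.97, SE 0.48), Col5a1 (log2 -1.80, SE 0.42) and Col5a3 (log2 -1.80, SE 0.56) fell most. Col3a1 had 39.2 and 19.8 CPM in tumours and 100.4, 103, 48.2 and 135 CPM in Arid1a KO livers (log2 -1.72, SE 0.49, edgeR adjusted p = 0.0176), with both tumours below all 4 livers. Col16a1 (log2 -1.66, SE 0.55), Col14a1 (log2 -1.46, SE 0.39), Col5a2 (log2 -1.37, SE 0.47), Col6a3 (log2 -1.37, SE 0.47), Col15a1 (log2 -1.31, SE 0.45) and Col18a1 (log2 -1.02, SE 0.23) were lower too, and Col11a2 was higher (log2 1.54, SE 0.53). Col1a1 (log2 -0.91, SE 0.55), Col1a2 (log2 -1.14, SE 0.50), Col6a1 (log2 -1.17, SE 0.44), Col6a2 (log2 -1.18, SE 0.49), Col4a1 (log2 0.47, SE 0.38) and Col4a2 (log2 -0.30, SE 0.44) did not pass. Without tumour replicate 2 most of the 12 calls were lost and others appeared. The share of all genes called in fits without 1 library is not given. Col27a1 alone stayed called with any 1 library left out, and Col11a2 had a log2 of 0.01 without tumour replicate 1.

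**Figure D5:**
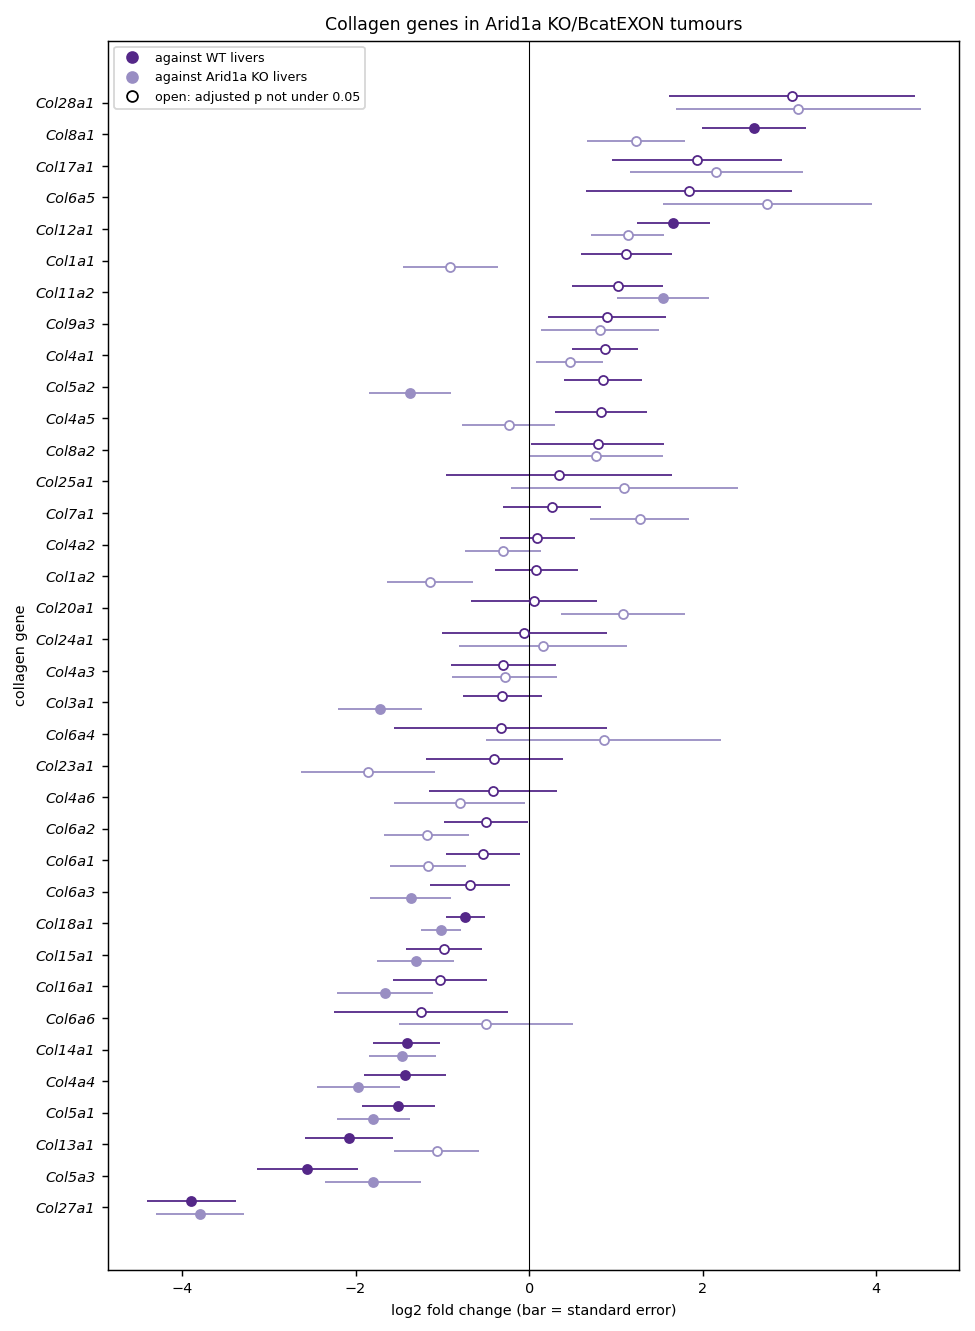
Log2 fold changes of 36 collagen genes in tumours over the mean of WT livers (dark purple) and of Arid1a KO livers (light purple); bars are standard errors and open points did not pass. Col27a1 lies at -3.90 and -3.79, and Col8a1 at 2.59 against WT livers and, open, at 1.23 against Arid1a KO livers.

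The same lists were counted in tumours against WT livers, in which 20.5% of all genes were called higher and 16.1% lower, 36.6% in all. Of 17 fibril partners 0 rose and 5 fell (median log2 -0.65), namely Fn1, Prelp, Dcn, Ogn and Tnxb, with Prelp, a proteoglycan that anchors fibrils, at -2.18 (SE 0.39) and Dcn, which coats fibrils, at -1.68 (SE 0.35). Of 17 tested breakdown genes and inhibitors 8 rose and 1 fell (median log2 1.25). Among those that rose were Mmp7 (log2 8.76, SE 0.88), Timp4 (log2 7.59, SE 1.07), Mmp12 (log2 4.44, SE 0.66) and Timp1 (log2 4.09, SE 0.54). Mmp7 and Timp4 were too low to be tested in livers. Of 21 modifying enzymes 4 rose and 3 fell, of 12 cleavage and cross-linking genes 2 rose and 3 fell, of 8 receptors 3 rose and 1 fell, of 16 basement membrane partners 5 rose and 2 fell, and of 22 signalling genes 7 rose and 4 fell. For fibril partners, modifying enzymes, cleavage genes and basement membrane partners the share called in either direction is near that over all genes. Among cell markers, of 10 endothelial markers 1 was higher and 7 lower, with sums of 189 and 114 CPM in tumours, against 304 to 539.6 CPM in the 4 WT livers. Of 13 stellate cell markers 2 were higher and 4 lower, with sums of 378 and 348 CPM in tumours, against 261 to 383 CPM in WT livers. Of 9 macrophage markers 1 was higher and 6 lower, with sums of 346 and 251 CPM in tumours, against 165 to 1279 CPM in WT livers, and of 5 mesothelial markers 0 were higher and 3 lower. Of 6 myofibroblast and smooth muscle markers Acta2 was higher (log2 1.78, SE 0.46, edgeR adjusted p = 0.0102) and Tagln lower (log2 -1.07, SE 0.34), with sums of 20.9 and 11.4 CPM in tumours, against 11.3 to 16.5 CPM in WT livers. Of 8 portal fibroblast markers Entpd2 was higher (log2 2.63, SE 0.49), with sums of 59.6 and 28.4 CPM in tumours, against 16.5 to 24.1 CPM in WT livers. Of 7 cholangiocyte markers Cftr (log2 4.47, SE 0.63) and Epcam (log2 1.21, SE 0.41) were higher, and of 10 hepatocyte markers Serpina1a (log2 -2.35, SE 0.38) and Apob (log2 -1.63, SE 0.38) were lower. For stellate cell, myofibroblast and cholangiocyte markers the share called in either direction is near that over all genes. For portal fibroblast and hepatocyte markers it is below that share. Of 4 exocrine pancreas markers Cela3b was called higher, at 4.65 and 8.23 CPM in tumours, against at most 0.0958 CPM in WT livers. Against Arid1a KO livers, where 18% of all genes were called higher and 15.2% lower, 0 of 17 fibril partners rose and 7 fell, 1 of 9 macrophage markers was higher and 7 lower, and 0 of 13 stellate cell markers were higher and 3 lower. The part of these markers in the collagen differences was not tested.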

How the data were processed

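Whole-liver and tumour RNA was sequenced in 16 libraries, 2 per group. The values used are raw read counts per gene deposited by the authors. Reads were trimmed with fastp, aligned to GRCm38.p6 with STAR 2.7.3 and counted with featureCounts, per the submitters' processing notes; annotation release and strand setting: not given in the sources used here. A deposited normalized table was not used.

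Counts were tested with edgeR 4.0.16 (R 4.3.3; filterByExpr, TMM, quasi-likelihood F test, Benjamini-Hochberg over all genes, adjusted p under 0.05). Liver comparisons were fitted to 14 libraries in 7 groups (17831 genes, 7 residual degrees of freedom), tumour comparisons to all 16 in 8 groups (18193 genes, 8 residual degrees of freedom), giving 11 comparisons. Alternatives used DESeq2 1.42.0, RLE scaling, no low-count filter, a replicate block, other library sets and leaving out each library. CPM are TMM-scaled; RPKM divide by the longest principal transcript in GENCODE M21. Named genes are collagen genes called in a comparison (up to 12 per direction), 12 liver collagens called or not, and up to 5 members of each other list with the smallest p; further genes named were chosen after their values were seen. Values were computed with Python 3.11.15 and pandas 2.3.3 and drawn with matplotlib 3.10.9.

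The collagen genes and the lists were chosen with earlier results of these data known. Labels do not name the animals, so p-values measure only the spread between these samples. Whole-gene counts do not check the genotype labels.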

Additional observations from a re-analysis of the deposited data

How the results depend on the processing

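Of 1787 gene-level values recomputed under alternatives, 1619 kept their side of the threshold, 129 lost the call and 39 gained it. The 1787 include liver collagens that the main fit did not call, and only called genes could lose a call. The 129 are therefore a larger share of the called values than of the 1787. A change of direction was counted only where the main or the alternative fit called the gene, and there were 0. Values called in neither fit may have changed direction and are among the 1619. Leaving out 1 library gave 13 to 19 called collagen genes for Arid1a/b DKO against WT (20 with all), 9 to 18 against Arid1a KO (19), 0 to 2 for Arid1a KO against WT at 30 days (1), 0 to 2 under the agonist (4), 0 to 1 for the agonist in Arid1a KO (0), 7 to 10 for tumours against WT (9) and 6 to 13 against Arid1a KO (12). Without the low-count filter the counts were 7 at 9 days, 4 at 30 days, 14 under the agonist and 1 for genotype by time. For the agonist in WT and in Arid1a KO they were 1 and 7, and for genotype by agonist 3. For tumours against WT and Arid1a KO they were 14 and 19. In that setting Col1a1 at 30 days had a log2 of 2.51, near the main value, but an edgeR adjusted p of 1.74e-15. The cause was not tested. Shares of all genes called under the alternatives are not given here, so none of these counts can be read as an excess of collagen genes. DESeq2 gave 2 at 30 days and 9 under the agonist. With only the compared libraries the counts were 1 at 9 days and 0 at 30 days, and with all 16 libraries 0 at 30 days and 2 under the agonist. Depth limits genes near 3 counts, such as Col28a1, Col17a1 and Col6a4.

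With the replicate number as a block the counts were 20 and 19 for Arid1a/b DKO against WT and Arid1a KO, 0 at 9 days, 0 at 30 days, 2 under the agonist, and 9 and 13 for tumours. The labels do not say what a shared number marks, and not every pair of groups deviated together: over 28 pairs of groups the correlation of same-numbered deviations ran from -0.106 to 0.356 (median 0.069), and 12 were over 0.1. Replicate 1 was the shallower library in all 8 groups, so number and depth cannot be told apart.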

Other observations

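Per length, the chains of type I and type V collagen stood in other ratios in Arid1a KO than in WT livers. Col1a1 over Col1a2 was 0.576 to 0.840 in 6 Arid1a KO livers and 0.308 to 0.447 in 6 WT livers, without overlap. Col5a1 over Col5a2 was 0.286 to 1.14 in Arid1a KO and 1.31 to 3.0 in WT livers, also without overlap. Arid1a/b DKO livers had 0.750 and 0.994 for the type I ratio and 0.727 and 0.800 for the type V ratio. Tumours had 0.907 and 0.6755 for the type I ratio and 0.394 and 0.360 for the type V ratio. These ratios were noticed in the same livers, so they are given as a description. Exact permutation tests were run on 6 ratios in these livers, and since they use the values that drew attention to the ratios, their p-values are not given as support. The mean log2 differences of the other 4 ratios, Arid1a KO minus WT, were -1.0 for Col5a3 over Col5a1, 0.37 for Col6a3 over Col6a1, -0.16 for Col6a1 over Col6a2 and 0.06 for Col4a1 over Col4a2. Library scaling cancels in a ratio within 1 library.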
